A study of Mus musculus with 6 samples.

Results

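Bone marrow from 3 NM1 KO and 3 NM1 WT mice was examined for 9 genes that mark mature B cells: Cd79a, Cd79b, Cd37, Ms4a1, Cd22, Fcmr, Fcer2a, Cr2 and Spib. They were taken by symbol from 46603 Ensembl genes, using the GENCODE M21 annotation of GRCm38, and all 9 were among the 15069 genes with enough counts to test. The NM1 KO mice lacked nuclear myosin 1, an isoform of the motor protein that Myo1c encodes, and the NM1 WT mice were wild type. Both genotypes were C57/Bl6 animals aged 8 months, and the labels name no treatment. Each library came from the femurs and tibiae of 1 mouse, with no sorting step in the labels. The comparison asked whether loss of nuclear myosin 1 altered the mature B cell transcripts of whole marrow.

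B cells arise in the marrow from progenitors that assemble the heavy and then the light immunoglobulin chain, leave as immature cells, and mature mainly in the spleen. Mature cells that recirculate return to the marrow, so whole marrow holds both precursors and mature cells. The B cell receptor is a membrane immunoglobulin paired with the CD79A and CD79B chains, which carry the signal, while coreceptors such as CD22 and the complement receptor CD21 set its strength.

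None of the 9 genes passed edgeR's quasi-likelihood test at the threshold of 0.05 on the adjusted p. Over all tested genes 0.776% passed, 0.591% higher and 0.186% lower in NM1 KO. Their median log2 fold change, NM1 KO over NM1 WT, was -0.0028, beside 0.0019 for all tested genes, and 4 of 9 were positive, against 50.2% of all tested genes. Spib and Cd37 had an unadjusted p under 0.05, that is 2 of 9 genes against 16.8% of all tested genes. Spib and Ms4a1 were higher in every NM1 KO library than in any NM1 WT library, and Cd37 was lower, so 3 of 9 genes did not overlap, against 20.5% of all tested genes (10.8% higher and 9.75% lower in NM1 KO). In unsorted marrow, fewer cells of a type and less RNA per cell cannot be told apart.

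Library totals lay between 15145052 and 22618802 counts, and each of the 9 genes had between 167 and 7907 counts in a library. Myo1c had 73.8, 59.1 and 59.7 CPM in NM1 KO 1 to 3 and 89.8, 115 and 102 CPM in NM1 WT 1 to 3, without overlap. It averaged 64.2 ± 8.28 CPM in the NM1 KO mice, against 102 ± 12.4 CPM in the NM1 WT mice (SD, n = 3 each; adjusted p = 0.0516, edgeR), a level that adds up all its isoforms and does not check the nuclear form. CPM are counts scaled to a common library size with TMM factors. Y-linked transcripts were present in 2 NM1 KO libraries (NM1 KO 1 and NM1 KO 2) and 1 NM1 WT library (NM1 WT 2). They were at 0 counts in the others, so both genotypes held both states, though in unequal numbers. Xist, an X-linked transcript, went the other way, with 14, 6 and 20 counts in NM1 KO 1, NM1 KO 2 and NM1 WT 2. It had 5731, 4141 and 4571 counts in NM1 KO 3, NM1 WT 1 and NM1 WT 3. The labels give no sex. The NM1 WT 2 library had a higher correlation of log2 CPM to NM1 KO 1 (0.969) than to NM1 WT 1 or NM1 WT 3 (0.957 each). NM1 KO 1 was in turn nearer to NM1 WT 2 than to NM1 KO 3 (0.967). The lowest correlations were those of NM1 KO 2 to NM1 WT 1 (0.937) and to NM1 WT 3 (0.942). B lineage RNA was present throughout, with Pax5, the factor that fixes B cell identity, at 96.8 to 172 CPM over the 6 libraries. Platelet and stromal markers were higher in NM1 KO: 10 of 12 platelet genes and 5 of 10 stromal genes passed. Their summed levels did not overlap, at 2179 to 4601 CPM in the NM1 KO mice, against 1068 to 1387 CPM in the NM1 WT mice for platelet genes. For stromal genes the sums were 1216 to 2041 CPM in the NM1 KO mice, against 554 to 664 CPM in the NM1 WT mice. Of the stromal sums, Cxcl12 alone held 972, 1400 and 747 CPM in NM1 KO 1 to 3 and 319, 430 and 432 CPM in NM1 WT 1 to 3. Skeletal muscle markers had the largest median log2 fold change of the lists, 2.36, with 8 of 8 tested genes positive and 5 past the threshold. Their sums were 123 to 157 CPM in the NM1 KO mice, against 41.5 to 49.1 CPM in the NM1 WT mice, and Mb, myoglobin, was at 0 in NM1 WT. Of 12 monocyte and macrophage markers 2 passed, both higher, but 6 were positive and 6 negative, with a median log2 fold change of -0.02. Of 10 erythroid markers 0 passed. The part of these cells in the B cell values was not tested.

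**Figure D1:**
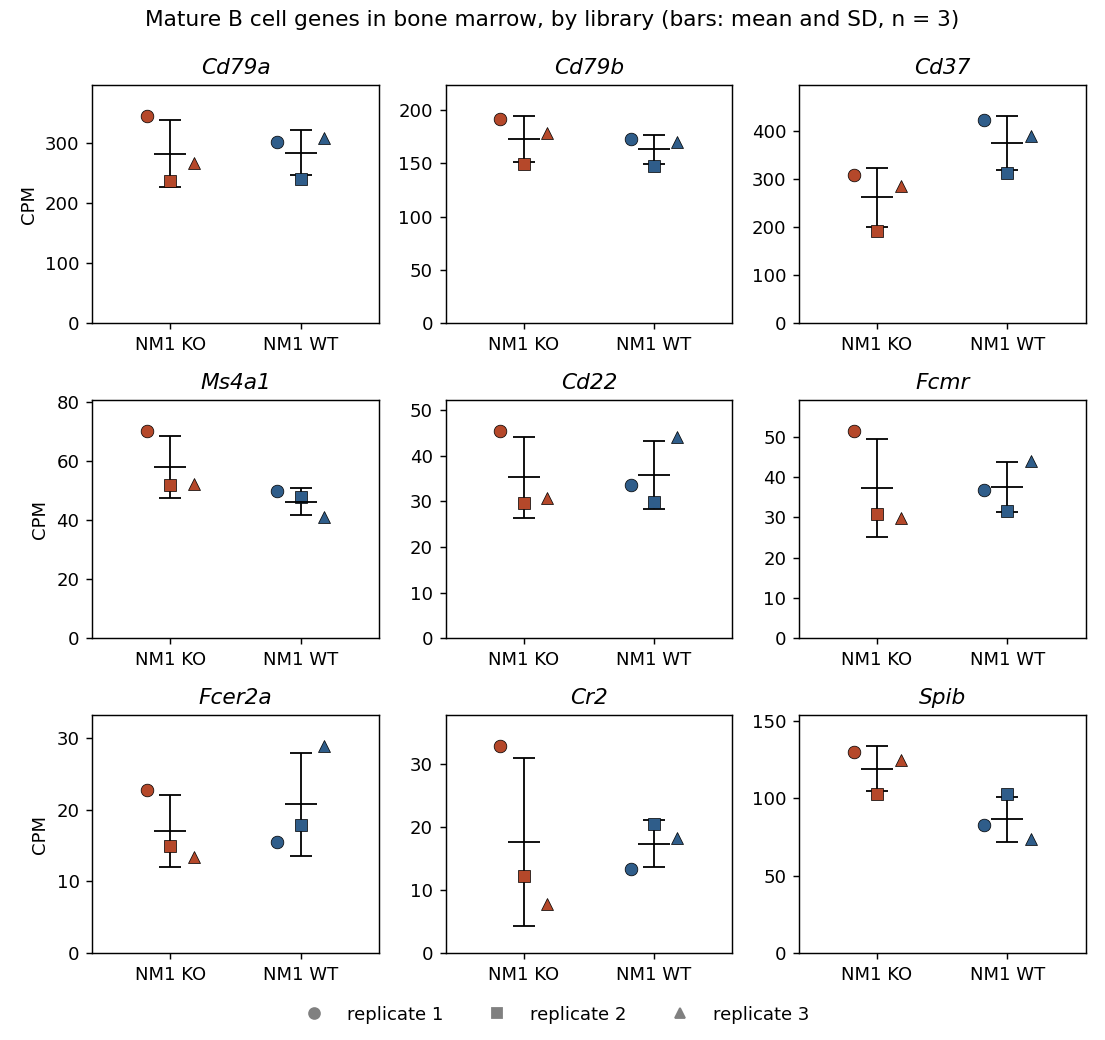
Each panel plots 1 gene, with the level in CPM on the y axis and genotype on the x axis. Points are single libraries, and bars give the mean and SD of 3 mice. The Spib and Ms4a1 panels show NM1 KO points just above the NM1 WT points, Cd37 shows them below, and the Cr2 panel shows 1 NM1 KO point at 32.9 CPM far above the other 5 libraries.

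The signalling chains of the receptor did not differ beyond the spread between mice. Cd79a (ENSMUSG00000003379, chromosome 7, 24897381 to 24902197), which encodes the alpha chain, had 344, 235 and 265 CPM in NM1 KO 1 to 3 and 301, 240 and 307 CPM in NM1 WT 1 to 3. The NM1 KO range enclosed all NM1 WT values. Its log2 fold change was -0.0062 (SE 0.16, 95% interval -0.36 to 0.34, adjusted p = 0.99, edgeR). Cd79b (ENSMUSG00000040592, chromosome 11, 106311341 to 106314762), the beta chain, had 191, 149 and 178 CPM in the NM1 KO mice, against 172, 147 and 170 CPM in the NM1 WT mice. These values overlapped as well, and the log2 fold change was 0.08 (SE 0.13, 95% interval -0.21 to 0.38, adjusted p = 0.804, edgeR). Both chains are made from the progenitor stage on, so their level counts precursors along with mature cells.

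Cd37 (ENSMUSG00000030798, chromosome 7, 45233632 to 45239115) encodes a tetraspanin of leukocyte membranes that is abundant on mature B cells and also present on other leukocytes. It had 309, 192 and 285 CPM in the NM1 KO mice, against 422, 312 and 390 CPM in the NM1 WT mice. Every NM1 KO value was below every NM1 WT value, but NM1 KO 1 and NM1 WT 2, the nearest pair, differed by 1.04%. That gap is within counting error. Exact Poisson 95% intervals on read pairs were 299 to 319 CPM in NM1 KO 1 and 301 to 324 CPM in NM1 WT 2. The log2 fold change was -0.52 (SE 0.18, 95% interval -0.91 to -0.12), with adjusted p = 0.185 in edgeR's quasi-likelihood test. Without a filter on low counts the adjusted p in that test was 0.0163, which passed. In that setting 1138 of all 24358 tested genes passed, against 117 of 15069 with the filter. Relative to Cd79a in the same library, Cd37 averaged -0.11 ± 0.20 in NM1 KO and 0.40 ± 0.07 in NM1 WT on the log2 scale (SD, n = 3 each). This ratio did not overlap between genotypes either (exact two-sided permutation p = 0.1, the smallest that 3 against 3 mice allow, and 0.667 after adjustment over 10 ratios). Cd37 shares 13 bases with Tead2 on the other strand, and Tead2 had 52 to 124 counts against 4165 to 7103 counts for Cd37.

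Neutrophil markers lay on the same side as Cd37. All 13 were negative, their median log2 fold change was -0.47, none passed, and none was at 0. Their summed level was 38407 to 49573 CPM in the NM1 KO mice, against 49304 to 66905 CPM in the NM1 WT mice, so that the highest NM1 KO library just overlapped the lowest NM1 WT library. Lcn2, a granule lipocalin, had log2 fold change -0.72 and Ly6g, a neutrophil surface protein, -0.56. How much of the Cd37 signal came from neutrophils was not tested.

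Spib (ENSMUSG00000008193, chromosome 7, 44525993 to 44532071) is the one gene of the 9 whose product is not on the cell surface. It encodes Spi-B, an ETS family transcription factor of B cells and plasmacytoid dendritic cells that binds the same purine-rich motif as PU.1. It had 130, 103 and 125 CPM in the NM1 KO mice, against 82.9, 102 and 73.7 CPM in the NM1 WT mice. All NM1 KO values were above all NM1 WT values, but NM1 KO 2 and NM1 WT 2 differed by only 0.148%, which is within counting error: exact Poisson 95% intervals on read pairs were 96.7 to 109 CPM in NM1 KO 2 and 95.8 to 109 CPM in NM1 WT 2. The log2 fold change was 0.46 (SE 0.15, 95% interval 0.13 to 0.79), and its adjusted p of 0.161 in edgeR's quasi-likelihood test was the smallest of the 9. It passed without the filter on low counts, at adjusted p = 0.0343 in the same test, where 1138 of all 24358 tested genes passed.

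Ms4a1 (ENSMUSG00000024673, chromosome 19, 11249675 to 11266241) encodes CD20, a membrane protein that appears at the pre-B stage and stays on mature B cells. It had 70.1, 51.8 and 52.1 CPM in the NM1 KO mice, against 49.8, 47.9 and 41.0 CPM in the NM1 WT mice. NM1 KO was higher throughout, with the nearest libraries 4.01% apart, which is within counting error. Exact Poisson 95% intervals on read pairs were 47.6 to 56.3 CPM in NM1 KO 2 and 44.8 to 55.2 CPM in NM1 WT 1. The log2 fold change of 0.33 (SE 0.16, 95% interval -0.01 to 0.67) did not pass (adjusted p = 0.319, edgeR). Its value was 0.16 when NM1 KO 1 was left out.

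Spib and Ms4a1 lay in the direction of the early B cell markers. Of 14 such markers, 13 were positive, the median log2 fold change was 0.33, and 0 passed. Rag1 and Rag2, the recombinase genes, had log2 fold changes of 1.07 and 1.16. The summed early B cell level was 475 to 557 CPM in the NM1 KO mice, against 388 to 433 CPM in the NM1 WT mice, with no overlap and no marker at 0. Dendritic cell markers, which include plasmacytoid ones, lay the other way: 9 of 12 were negative with a median of -0.14. Siglech, a plasmacytoid surface lectin, had 27.5 to 36.9 CPM in the NM1 KO mice, against 38.8 to 45.6 CPM in the NM1 WT mice (adjusted p = 0.255, edgeR), and Zbtb46, a factor of conventional dendritic cells, had log2 fold change 0.67. None of the 12 passed. The part of precursors in the Spib and Ms4a1 values was not tested.

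**Figure D2:**
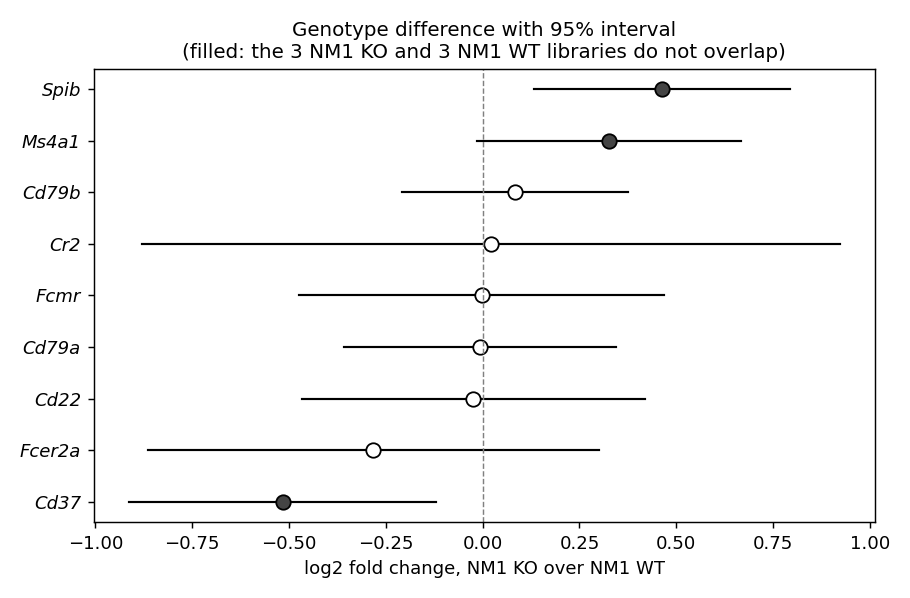
Points give the log2 fold change of each gene, NM1 KO over NM1 WT, and lines its 95% interval from edgeR's quasi-likelihood fit of 6 libraries. Filled points are genes whose libraries do not overlap between genotypes. Spib at 0.46 and Cd37 at -0.52 lie at the ends, and the Cr2 interval, -0.88 to 0.92, is the widest.

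Upstream sequence is shown for Spib, the gene with the smallest p, and for Cr2, the gene with the widest spread. Both stretches are the 150 bases before the RefSeq start (GRCm38.p6, 5′ to 3′ on the gene's strand) and hold no annotated GENCODE exon. Spib lies at chr7:44532072-44532221 (minus strand) and Cr2 at chr1:195176720-195176869 (minus strand). Capitals mark matches to 3 motifs searched on both strands. These were GAGGAA, the core bound by Spi-B and PU.1, the octamer ATGCAAAT, bound by Oct factors, and CCCNNGGG, the core of the Ebf1 motif.
Spib: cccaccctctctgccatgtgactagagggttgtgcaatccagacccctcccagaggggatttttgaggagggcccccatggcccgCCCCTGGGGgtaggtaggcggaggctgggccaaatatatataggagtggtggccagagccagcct
Cr2: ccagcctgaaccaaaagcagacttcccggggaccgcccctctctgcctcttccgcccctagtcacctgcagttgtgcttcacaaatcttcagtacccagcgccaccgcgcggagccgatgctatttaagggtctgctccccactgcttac

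In the 250 bases before the start, 7 of the 9 genes had a RefSeq sequence to search. Spib held 2 overlapping CCCNNGGG matches and Cr2 none of the 3 motifs. GAGGAA was found in 3 of 7 genes, Cd37, Cd79a and Fcmr, against 23.3% of 32851 RefSeq starts. CCCNNGGG was found in 2 of 7, Spib and Cd22, against 11.8% of starts, and ATGCAAAT in 0 of 7, against 1.6%. The units differ, since the percentages count starts and not genes, and Fcer2a has 3 starts, none with a match. RefSeq starts can lie inside the GENCODE gene. Among genes with a match, the searched bases fell wholly within the GENCODE gene for Cd22 and Cd37. They fell partly within it for Cd79a and Fcmr, and outside it for Spib. The matches to GAGGAA nearest to the start are shown with 30 bases each, since they are the letters that the product of Spib is known to bind. They lie at chr7:45238845-45238874 (minus strand) for Cd37, chr7:24897345-24897374 (plus strand) for Cd79a and chr1:130865729-130865758 (plus strand) for Fcmr. All 3 read as the reverse complement, and the Cd37 and Fcmr stretches fall within exons of the GENCODE annotation.
Cd37: cccccccggaacTTCCTCtttctctgccgg
Cd79a: ggtgcagggcagTTCCTCtccactcagagc
Fcmr: acagattatcatTTCCTCattttaagtcct

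On the log2 fold change scale, Cd37 was at -0.52, Cd79a at -0.0062 and Fcmr at -0.0028, and none of the 3 passed. A match is a description of the letters and not a binding site measured in this marrow.

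The remaining surface receptors differed more between mice than between genotypes. Cd22 (ENSMUSG00000030577, chromosome 7, 30865402 to 30880342) encodes a sialic acid binding lectin that restrains the B cell receptor. It had 45.4, 29.6 and 30.8 CPM in the NM1 KO mice, against 33.7, 29.8 and 44.1 CPM in the NM1 WT mice, with 1 high library in each genotype and full overlap. Its log2 fold change was -0.02 (SE 0.20, 95% interval -0.47 to 0.42, adjusted p = 0.968, edgeR).

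Fcmr (ENSMUSG00000042474, chromosome 1, 130865669 to 130880791), the Fc receptor for IgM, followed the same order of libraries at the top. It had 51.4, 30.9 and 29.9 CPM in the NM1 KO mice, against 36.9, 31.6 and 43.9 CPM in the NM1 WT mice, again overlapping. The group means were 37.4 ± 12.2 CPM in the NM1 KO mice, against 37.5 ± 6.17 CPM in the NM1 WT mice (SD, n = 3 each), and the log2 fold change had a 95% interval of -0.47 to 0.47 (adjusted p = 0.995, edgeR). Ighd, the constant region of the IgD receptor of mature B cells and named after its values were seen, had 146, 86.9 and 80.6 CPM in the NM1 KO mice, against 104, 92.7 and 133 CPM in the NM1 WT mice. Its highest library of each genotype, NM1 KO 1 and NM1 WT 3, was that of Cd22 and Fcmr.

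Fcer2a (ENSMUSG00000005540, chromosome 8, 3681737 to 3694175) encodes CD23, the low-affinity IgE receptor of follicular B cells. It had 22.8, 14.9 and 13.4 CPM in the NM1 KO mice, against 15.5, 17.8 and 28.9 CPM in the NM1 WT mice. NM1 KO 2 and NM1 KO 3 were the lowest of all 6 libraries, while NM1 KO 1 lay within the NM1 WT range. The log2 fold change of -0.28 (SE 0.27, 95% interval -0.86 to 0.30) did not pass (adjusted p = 0.643, edgeR). Leaving out NM1 WT 3 turned it to 0.03, and leaving out NM1 KO 1 moved it to -0.55.

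Cr2 (ENSMUSG00000026616, chromosome 1, 195136811 to 195176716) encodes CD21, the receptor for complement C3 fragments on B cells, and in the mouse also CD35 through splicing. It had 32.9, 12.3 and 7.83 CPM in the NM1 KO mice, against 13.4, 20.5 and 18.4 CPM in the NM1 WT mice. The NM1 KO group thus held both the highest and the lowest libraries, 4.20-fold apart, against 1.53-fold between the highest and lowest NM1 WT libraries. Exact Poisson 95% intervals on read pairs, which cover counting error only, were 29.7 to 36.4 CPM in NM1 KO 1 and 6.24 to 9.70 CPM in NM1 KO 3. The group means were 17.7 ± 13.4 CPM in the NM1 KO mice, against 17.4 ± 3.66 CPM in the NM1 WT mice (SD, n = 3 each), and the log2 fold change was 0.02 (SE 0.41, 95% interval -0.88 to 0.92, adjusted p = 0.987, edgeR). Without NM1 KO 1 it was -0.80, with adjusted p = 0.194.

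Cr2 and Fcer2a are also made by follicular dendritic cells, the stromal cells of B cell follicles. Of 5 tested markers of these cells, Clu, a chaperone made by many cells, rose (log2 fold change 1.23, SE 0.24, adjusted p = 0.0433, edgeR), and Mfge8, a bridging protein for dying cells, had -0.60. The summed level of the 5 was 162 to 255 CPM in the NM1 KO mice, against 110 to 145 CPM in the NM1 WT mice, and Coch was at 0 in NM1 KO 2. Of these sums, Clu alone held 96.0, 167 and 91.6 CPM in NM1 KO 1 to 3 and 38.0, 51.1 and 62.3 CPM in NM1 WT 1 to 3. The mean log2 CPM of the 5 overlapped, at 3.23 to 3.31 in the NM1 KO mice, against 3.00 to 3.58 in the NM1 WT mice. By log2 fold change, 3 were positive and 2 negative. Cxcl13, the chemokine that defines follicles, was too low to test, with 72, 52 and 8 counts in NM1 KO and 0, 4 and 2 counts in NM1 WT. The part of these cells in the Cr2 and Fcer2a values was not tested.

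One library carried much of the variation. NM1 KO 1 was the highest NM1 KO library for all 9 genes and the highest of all 6 libraries for 7 of them, the exceptions being Cd37 and Fcer2a. Averaged over the 9 genes, its centred log2 CPM was 0.39, against -0.25 and -0.19 in NM1 KO 2 and NM1 KO 3 and -0.03, -0.06 and 0.13 in NM1 WT 1 to 3. Without NM1 KO 1 the median log2 fold change of the 9 genes was -0.25, and 6 were negative, but still 0 passed. The same library was the lowest for summed immunoglobulin constant regions, at 4096 CPM against 8893 and 10458 CPM in NM1 KO 2 and NM1 KO 3 and 5903 to 9233 CPM in the NM1 WT mice. Single constant regions differed in this. Ighg2b and Ighg1 were lowest in NM1 KO 1, at 85.6 and 28.5 CPM, but Ighd was highest there, at 146 CPM. Ighm was lower in NM1 WT 2 (1142 CPM) than in NM1 KO 1 (1790 CPM).

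**Figure D3:**
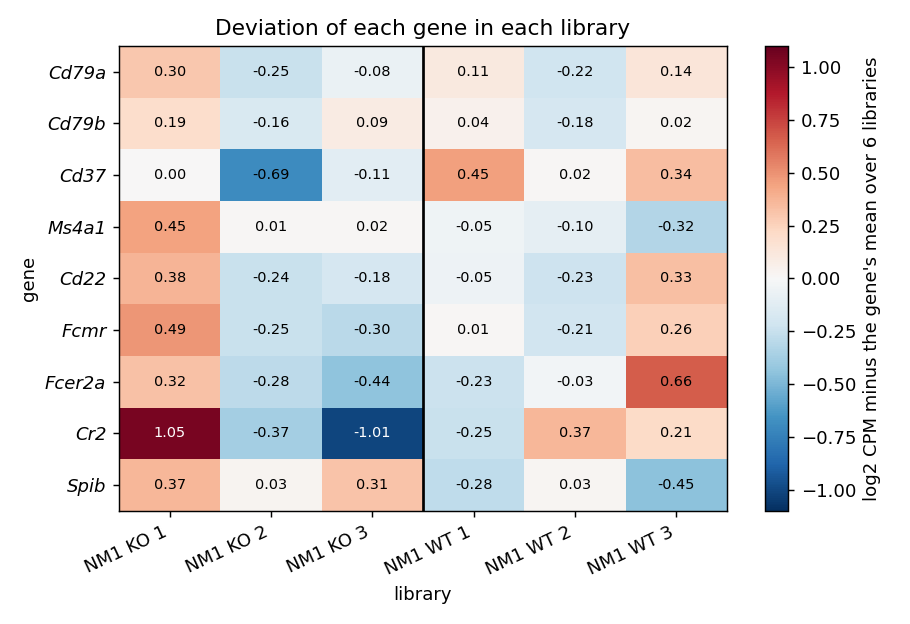
Colours and figures give the log2 CPM of each gene in each library minus the gene's mean over the 6 libraries, with NM1 KO on the left and NM1 WT on the right of the line. NM1 KO 1 is at or above the mean for every gene, and Cr2 runs from 1.05 in NM1 KO 1 to -1.01 in NM1 KO 3.

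Levels of different genes can be set side by side only per length, here as CPM per kilobase of merged exons. In that unit the order over the 6 libraries was Cd79a with a median of 195, Cd79b 119, Cd37 88.2, Spib 35.8, Fcmr 19.7, Ms4a1 8.21, Cd22 6.39, Fcer2a 5.39 and Cr2 1.96. The receptor chains common to the whole lineage were thus the most abundant, and the receptors of mature follicular and marginal zone cells the least. Between neighbours in this order the ranges overlapped for Cd79b and Cd37, Spib and Fcmr, Ms4a1 and Cd22, and Cd22 and Fcer2a. Of these, the first of the pair was higher in all 6 libraries for Cd79b and Cd37 and for Spib and Fcmr, and in 5 of 6 for the other two pairs. Merged exons include those of rare isoforms, which lowers the level per kilobase of genes with many.

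Set against the early B cell list, the mature genes were lower in 2 of 3 NM1 KO libraries. The mean log2 CPM of the 9 genes minus that of the 14 early markers was 1.77, 1.25 and 1.08 in NM1 KO 1 to 3 and 1.87, 1.64 and 1.93 in NM1 WT 1 to 3. NM1 KO 2 and NM1 KO 3 lay below all NM1 WT libraries, and NM1 KO 1 lay within their range. This difference was formed after the values were seen and was not tested.

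On the other B cell lists, which were described by counts and medians and not tested as sets, a single gene passed. Of 22 other genes high in mature B cells, 0 passed, with 9 positive and 13 negative and a median of -0.06. Ly86, a partner of the endotoxin receptor homolog RP105, had 66.6 ± 8.08 CPM in the NM1 KO mice, against 86.5 ± 11.6 CPM in the NM1 WT mice, and Cd55, a complement regulator, had 34.3 ± 2.81 CPM in the NM1 KO mice, against 26.8 ± 0.504 CPM in the NM1 WT mice (SD, n = 3 each). Of 20 genes of the B cell receptor signalling chain, some of which are also on the list before, 0 passed, with 12 positive and a median of 0.16. Pik3cd, the leukocyte PI3 kinase subunit, and Rac2, a leukocyte GTPase, had log2 fold changes of -0.44 and -0.41.

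Inhibitors of the receptor had a median of -0.16, with 9 of 12 negative and 0 past the threshold. Dok3, an adaptor that dampens the receptor, had 180 ± 40.7 CPM in the NM1 KO mice, against 264 ± 25.9 CPM in the NM1 WT mice (SD, n = 3 each, adjusted p = 0.139, edgeR), and Pirb, an inhibitory receptor shared with myeloid cells, had log2 fold change -0.60. Of 18 B lineage transcription factors, 0 passed, with 11 positive and a median of 0.09. Id3, an inhibitor of E proteins, had log2 fold change 0.78 without overlap between genotypes (adjusted p = 0.0786, edgeR). Spi1, which encodes PU.1, the relative of Spi-B, had 304, 219 and 299 CPM in the NM1 KO mice, against 417, 455 and 352 CPM in the NM1 WT mice (log2 fold change -0.57, adjusted p = 0.113, edgeR). Spi1 and Spib lay in opposite directions, each with no overlap between genotypes and neither past the threshold. Spi1 is also abundant in the neutrophil and monocyte lineage.

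Of 14 survival and migration genes 1 passed, and their median was -0.08. It was Cxcl12, the chemokine of marrow stroma that holds B cell precursors in the niche, and it rose (log2 fold change 1.40, SE 0.21, adjusted p = 0.0185, edgeR). Cxcl12 is also on the stromal list and is counted there. Bcl2, a survival factor, had log2 fold change -0.46. Of 14 tested ligands, partners and enzymes tied to the 9 genes, 0 passed, with a median of -0.09. Adam10, the protease that sheds CD23, had 216 ± 21.6 CPM in the NM1 KO mice, against 149 ± 8.80 CPM in the NM1 WT mice (SD, n = 3 each, adjusted p = 0.0779, edgeR), and Spic, a relative of Spib that marks iron-recycling macrophages, had 39.1 ± 20.3 CPM in the NM1 KO mice, against 17.0 ± 2.94 CPM in the NM1 WT mice (SD, n = 3 each). Of 11 tested Ms4a genes other than Ms4a1, 0 passed, with 8 negative and a median of -0.38. Ms4a4d was at 2.05 (SE 0.52, adjusted p = 0.0933, edgeR) and Ms4a4c at -0.62 on the log2 fold change scale. Levels of Ms4a4d were low, at 4.70, 8.11 and 2.06 CPM in the NM1 KO mice, against 1.22, 1.04 and 1.31 CPM in the NM1 WT mice.

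Plasma cell, immunoglobulin and T cell genes had medians near 0. Of 9 plasma cell markers 0 passed, with a median of 0.04, and Slamf7 and Sdc1, surface proteins of plasma cells, had log2 fold changes of 0.50 and 0.42. Of 11 tested immunoglobulin constant regions 0 passed, with a median of -0.08. Ighg2b had 85.6, 1693 and 1602 CPM in the NM1 KO mice, against 410, 124 and 186 CPM in the NM1 WT mice, and Ighg1 had 28.5, 97.9 and 202 CPM in the NM1 KO mice, against 461, 151 and 313 CPM in the NM1 WT mice. Both overlapped between genotypes and differed many-fold between mice of 1 genotype. Of 16 T and NK cell markers, Cd4, the coreceptor of helper T cells, rose (log2 fold change 1.19, adjusted p = 0.0302, edgeR), and Nkg7, a cytotoxic granule protein, had -0.45. The list's median was -0.08, and its summed level overlapped, at 174 to 214 CPM in the NM1 KO mice, against 181 to 211 CPM in the NM1 WT mice.

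**Figure D4:**
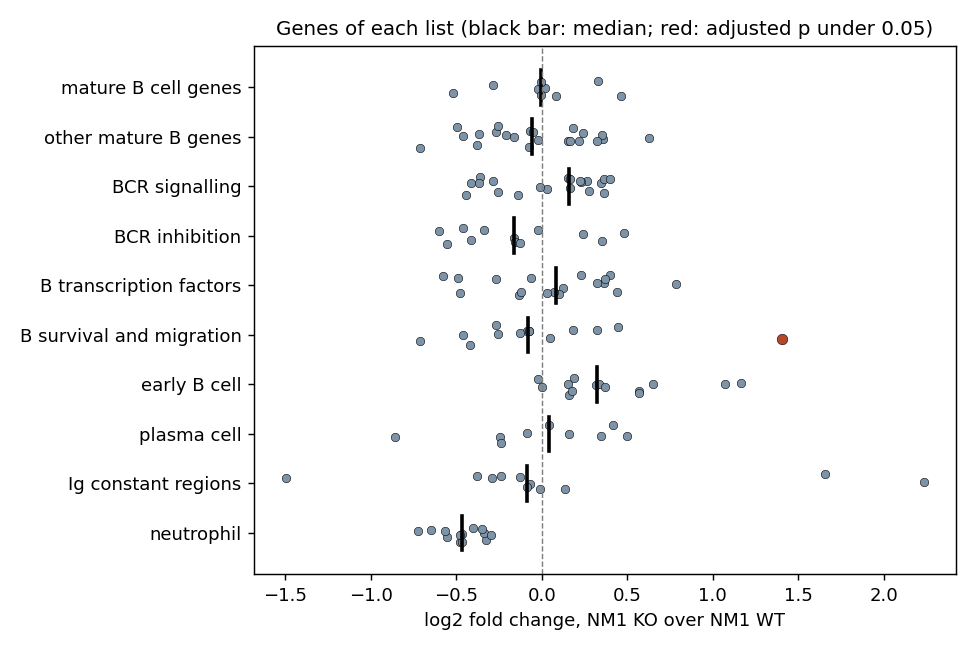
Each point is 1 gene, placed by its log2 fold change, NM1 KO over NM1 WT, and each row is 1 list with its median as a black bar. The 10 rows are the mature B cell genes, other mature B, receptor signalling, receptor inhibition, transcription factor, survival and migration, early B, plasma cell, immunoglobulin and neutrophil lists. The mature B cell row is centred at -0.0028, the early B cell row at 0.33 and the neutrophil row at -0.47, and the red point is Cxcl12 at 1.40, which passed.

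Other genes were ranked by their distance from the libraries' pattern over the 9 genes, so the closeness of the nearest follows from the choice. Of 8022 other tested genes with a mean of at least 1 CPM and at least the same spread, the 5 nearest to the mean centred profile were Gm29560, Afg1l, Zfp275, Birc3 and E130311K13Rik. They lay at root mean square distances of 0.08 to 0.10 log2 units over the 6 libraries. Levels were low for Gm29560 (1.98 to 3.13 CPM), Afg1l (2.81 to 4.79 CPM) and E130311K13Rik (1.01 to 1.83 CPM). The 9 genes themselves lay at distances of 0.10 for Fcmr to 0.48 for Cr2. Birc3, an inhibitor of apoptosis, had 75.3, 48.5 and 48.8 CPM in the NM1 KO mice, against 60.3, 65.0 and 66.4 CPM in the NM1 WT mice.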

How the data were processed

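The authors deposited raw counts per Ensembl gene, 1 file per mouse, with no normalisation. The submitters' processing notes list HISAT2 2.0.4 and HTSeq, beside Trimmomatic 0.36, SAMtools 0.1.19 and FastQC, and the builds GRCm38 and mm10. Strand setting and annotation release: not given in the sources used here. Of the counts from 1 to 20 in a library, at least 98.7% were even, as when both mates of a pair are counted. Of 46603 genes, 46091 matched GENCODE M21.

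Genotypes were compared with edgeR 4.0.16 in R 4.3.3 (filterByExpr defaults, TMM scaling, quasi-likelihood test, Benjamini-Hochberg adjustment over 15069 genes, threshold 0.05). Log2 CPM used a prior count of 2. The filter kept at least 99.9% of each library's counts, and 1 CPM stood for 14.7 to 23.0 counts. DESeq2 1.42.0 and limma 3.58.1 (voom) were alternatives, beside other scalings and filters. The fits were checked on simulated counts. Without molecular identifiers, the Poisson intervals describe counting error alone.

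The 9 genes and all lists were chosen with earlier results of these data known, so no test was made over a list. The text names the 9 genes, Myo1c, the genes of each B cell or related list past the threshold (or the 2 of smallest p where fewer than 2 passed), and the 5 nearest profiles. Pax5, Ighd, Ighm, Xist, Cxcl13 and Coch were named after their values were seen. For the platelet, stromal, muscle, monocyte and erythroid lists, whose genes the rule also names, only counts, sums or medians are given, beside Mb and Cxcl12. Log2 ratios of 10 gene pairs were compared with exact permutation tests, and that of Cd37 to Cd79a is given above. Relative to Cd79a, Spib averaged -1.23 ± 0.16 in NM1 KO and -1.71 ± 0.43 in NM1 WT (SD, n = 3 each). Ms4a1 averaged -2.27 ± 0.08 in NM1 KO and -2.61 ± 0.29 in NM1 WT. Each of these had exact permutation p = 0.2, and 0.667 after adjustment over the 10 ratios.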

Additional observations from a re-analysis of the deposited data

How the results depend on the processing

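None of the 9 genes passed in 15 of 17 alternative settings and at an adjusted p under 0.1. With no low-count filter 2 passed (Cd37 and Spib), beside 1138 of all 24358 genes tested there. With a replicate block 1 passed (Cd37, adjusted p = 0.0456, edgeR), beside 421 of all 15069. In the main fit 117 of 15069 passed. The replicate numbers are not shown to pair the mice: correlations of same-numbered deviations were 0.06, 0.12 and 0.06, though every library correlated best with its own number. The count over all genes, 117, was 1138 with no low-count filter, 794 with DESeq2, 37 with limma-voom, 541 with the likelihood ratio test, 421 with the replicate block, 207 without immunoglobulin and haemoglobin genes, 60 with a covariate for Y-linked transcripts, and 357 at an adjusted p under 0.1. Leaving out 1 library gave 26 (without NM1 WT 1) to 344 (without NM1 WT 2). The median of the 9 genes lay between -0.25 and 0.12 when 1 library was left out.

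Cd37, Spib, Ms4a1 and Cd79b kept their direction in all 17 settings, and Cd37 ranged from -0.66 to -0.33. Log2 fold changes near 0 changed sign. Total-count scaling gave 0.0132 for Cd22, 0.0331 for Cd79a and 0.0354 for Fcmr. No low-count filter gave 0.0099 for Cd79a and 0.0139 for Fcmr. With the Y-linked covariate Cd79a was 0.0374 and Cr2 -0.42, and Cr2 was -0.22 with limma-voom and -0.24 with the replicate block. Leaving out 1 library gave -0.25 to 0.15 for Cd22, -0.18 to 0.11 for Cd79a, -0.80 to 0.37 for Cr2, -0.55 to 0.025 for Fcer2a and -0.31 to 0.13 for Fcmr. The cause of these moves was not tested. With 3 mice a group, the 95% intervals bound how closely each log2 fold change is known.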
